A study of Mus musculus with 24 samples.

Results

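The fatty acid uptake and binding genes of adipose tissue were examined in RNA-Seq data of mice with experimental renal failure. They are 7 genes taken by name, Fabp4, Fabp5, Cd36, Lpl, Gpihbp1, Slc27a1 and Acsl1, out of 54232 genes in the count table, and all 7 were among the 26116 genes with more than 10 counts in all that were tested. The 24 libraries came from as many C57BL6 mice, 6 in each of the 4 groups. Control mice had a sham operation and GFP, NaKtide mice had a sham operation and NaKtide, PNx mice had a partial nephrectomy and GFP, and PNx+NaKtide mice had a partial nephrectomy and NaKtide. The age was 10 weeks by the series description, and the fat was visceral by the methods of the study. Partial nephrectomy ties off part of the left kidney and removes the right kidney, as a model of renal failure. NaKtide is a peptide from the sodium pump (Na,K-ATPase), designed to hold back the kinase Src. All 4 groups, controls included, carried a lentivirus injected into the abdominal cavity, in which the adiponectin promoter, active in adipocytes, drove GFP alone or NaKtide with GFP.

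Adipocytes take fatty acids from circulating triglyceride in steps that these genes serve in order. Lipoprotein lipase (Lpl) is made by adipocytes, and Gpihbp1 of capillary endothelium carries it to the vessel lumen and anchors it there, where it splits triglyceride. Cd36 is a membrane receptor that takes up long-chain fatty acids, Slc27a1 (fatty acid transport protein 1) promotes their uptake, Acsl1 joins them to coenzyme A and so holds them in the cell, and Fabp4 and Fabp5 bind them in the cytosol. Several of these genes are known targets of the adipocyte transcription factor PPARG, and Fabp4 is a common marker of the mature adipocyte.

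By the GENCODE M21 annotation (GRCm38), Fabp4 (ENSMUSG00000062515) lies at chr3:10204088-10208576 on the minus strand and Fabp5 (ENSMUSG00000027533) at chr3:10012548-10016607 on the plus strand of the same chromosome. Cd36 (ENSMUSG00000002944) lies at chr5:17781690-17888801 on the minus strand. On the plus strand are Lpl (ENSMUSG00000015568) at chr8:68880491-68907448, Gpihbp1 (ENSMUSG00000022579) at chr15:75596628-75599481, Slc27a1 (ENSMUSG00000031808) at chr8:71568882-71587302 and Acsl1 (ENSMUSG00000018796) at chr8:46471037-46536051. Of the 7 genes only Acsl1 has exon bases in common with a gene of the other strand. Its partner is Gm45244 (ENSMUSG00000109807), a model still to be experimentally checked, at chr8:46471391-46473590 on the minus strand. The pair shares 1039 exon bases, and the partner's nearest edge lies 354 bases inside the start of Acsl1.

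The RefSeq promoter table (build GRCm38.p6) held 3 of the 7 genes, namely Cd36, Slc27a1 and Acsl1. The 250 bases before the start are shown for both Acsl1 starts, since Acsl1 stood apart from the other genes below, and for the Cd36 start of the table, an inner one that lies 52905 bases inside the gene as GENCODE places it. The sequences run 5′ to 3′ on the strand of the gene, and capitals mark matches to the motifs searched on both strands. These were GGGCGG, known from promoters rich in these bases, then CCAAT, which the factor NF-Y binds, then TATAAA, known from promoters with a fixed start, and AGGTCA, the element of many nuclear receptors. The direct repeat of AGGTCA with 1 base between its copies was searched too, and its copies also count as single matches. A match on the other strand appears as its reverse complement. The windows are chr8:46470787-46471036 (plus strand) for the upstream start of Acsl1, chr8:46490716-46490965 (plus strand) for its inner start and chr5:17835897-17836146 (minus strand) for the inner start of Cd36.
Acsl1, upstream start: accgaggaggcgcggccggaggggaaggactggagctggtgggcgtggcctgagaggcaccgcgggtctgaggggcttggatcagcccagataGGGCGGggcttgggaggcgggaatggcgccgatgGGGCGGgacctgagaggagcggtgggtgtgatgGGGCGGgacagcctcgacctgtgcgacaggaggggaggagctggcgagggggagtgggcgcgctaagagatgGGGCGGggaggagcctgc
Acsl1, inner start: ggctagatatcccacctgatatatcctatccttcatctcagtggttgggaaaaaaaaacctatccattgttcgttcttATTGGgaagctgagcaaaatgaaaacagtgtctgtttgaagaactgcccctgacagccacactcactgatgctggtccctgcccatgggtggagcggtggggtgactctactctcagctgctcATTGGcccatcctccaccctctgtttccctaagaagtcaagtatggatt
Cd36, inner start: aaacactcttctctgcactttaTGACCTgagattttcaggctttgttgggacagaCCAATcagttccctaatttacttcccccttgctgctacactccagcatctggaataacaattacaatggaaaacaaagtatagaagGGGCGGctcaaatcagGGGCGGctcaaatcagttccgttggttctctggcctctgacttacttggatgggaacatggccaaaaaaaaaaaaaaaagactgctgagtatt
The upstream window of Acsl1 had 72% G and C and 4 copies of GGGCGG, at 157, 123, 90 and 18 bases before the start. The inner window had 48.4% G and C, no GGGCGG and 2 CCAAT matches. The Cd36 window had 1 AGGTCA, 1 CCAAT and 2 GGGCGG matches. Among windows of this length before 32851 RefSeq starts, GGGCGG was found in 32.7%, CCAAT in 33.9%, TATAAA in 12.4%, AGGTCA in 14.0% and the direct repeat in 0.0335%. A match describes the letters and is no binding site. Gm45244 begins downstream of the upstream start, so that this window lies outside it.

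The libraries were shallow, with 679250 to 2979505 counts, and not alike. A count of 0 allows up to 3 counts, for counting error only. CPM are counts scaled to a common total, with TMM factors for composition. On this scale 3 counts ran from 0.739 CPM in PNx replicate 1 to 5.91 CPM in NaKtide replicate 5. PNx replicate 6 and NaKtide replicate 6 stood apart by their adipocyte markers. The 15 adipocyte markers, Adipoq, Lep and Plin1 among them, were all detected and summed to 6039 CPM and 4780 CPM in these 2 libraries and to 99.0 to 1108 CPM in the other 22. In the same pair, endothelial markers (10 genes, 751 and 529 CPM against 35.1 to 138 CPM), fibroblast progenitor markers (10 genes, 525 and 283 CPM against 26.6 to 127 CPM) and erythrocyte markers (5 genes, 1627 and 244 CPM against at most 119 CPM) were above the other 22 as well, and in NaKtide replicate 6 also skeletal muscle markers (10 genes, 5427 CPM against at most 41.1 CPM). Markers of the epididymis (12 genes, median 1123 CPM, and 93.6 and 18.7 CPM in the pair) and of testis germ cells (12 genes, median 726 CPM), tissues that lie beside the gonadal fat, were also counted in these adipose libraries. PNx replicates 1, 2 and 3 stood apart in their own way. They had the highest germ cell sums (1375, 1292 and 1580 CPM), with PNx+NaKtide replicates 3 and 4 near them at 1135 and 1161 CPM. Their brown fat sums were high (6 genes, 36.7, 35.5 and 20.9 CPM, median of all libraries 6.70 CPM), as was that of NaKtide replicate 6 (28.45 CPM). The sums of PNx replicates 1, 2 and 3 were low for epididymis (21.4, 189 and 529 CPM), macrophage (10 genes, 172, 283 and 188 CPM, median 393 CPM), mesothelium (6 genes, 6.90, 10.5 and 13.1 CPM, median 30.3 CPM) and kidney (6 genes, 779, 1557 and 995 CPM, median 3488 CPM, of which Nphs1 held 97.5%). No list had a gene at 0 in every library. Over all libraries, Csf1r held 88.0% of the macrophage sum, Krt19 85.45% of mesothelium, Dio2 65.8% of brown fat and Egfl7 61.2% of endothelium. These sums, like that of kidney, mainly follow 1 gene each. In the remaining lists the top gene held at most 30.9%. In bulk tissue, fewer cells of a type and less RNA per cell cannot be told apart.

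The strand on which reads were counted is in doubt for the whole table. The mitochondrial mRNA of the minus strand had 67.6 times the counts per kb of the 12 mRNAs of the plus strand together (21.0 to 194 times in single libraries), and 79.9% of all counts fell in the 16.8% of genes that share exon bases with a gene of the other strand. The strand setting of the counting is not given in the sources used here. Had the strand opposite to the transcript been counted, the values of all 7 genes, with or without such a partner, and of the marker lists would not be levels of their mRNA. The values below are therefore counts assigned to each gene, and a low number cannot be read as low expression.

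The levels of the genes, compared per length as deposited FPKM, were led by Fabp4. Its median over the 24 libraries was 16.7 FPKM, with a range of 4.65 to 331 FPKM, and it stood above the next gene in 21 of 24 libraries. Acsl1 (median 3.499 FPKM), Slc27a1 (2.88 FPKM) and Lpl (2.32 FPKM) followed, and these neighbours were not separated, since Acsl1 was above Slc27a1 in 12 of 24 libraries and Slc27a1 above Lpl in 9. Lpl exceeded Fabp5 (median 0.942 FPKM) in 23 of 24 libraries. Fabp5, Gpihbp1 (0.714 FPKM) and Cd36 (0.626 FPKM) were close to each other, each above the next in 13 of 24. Cd36 thus had the lowest median of the 7 and was at 0 in 3 libraries. With the strand in doubt, this order is one of assigned counts, and whether it is the order of the mRNAs was not tested. The order changed with the group. Lpl came after Fabp4 in Control and NaKtide, and Acsl1 took that place in PNx and PNx+NaKtide.

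**Figure D1:**
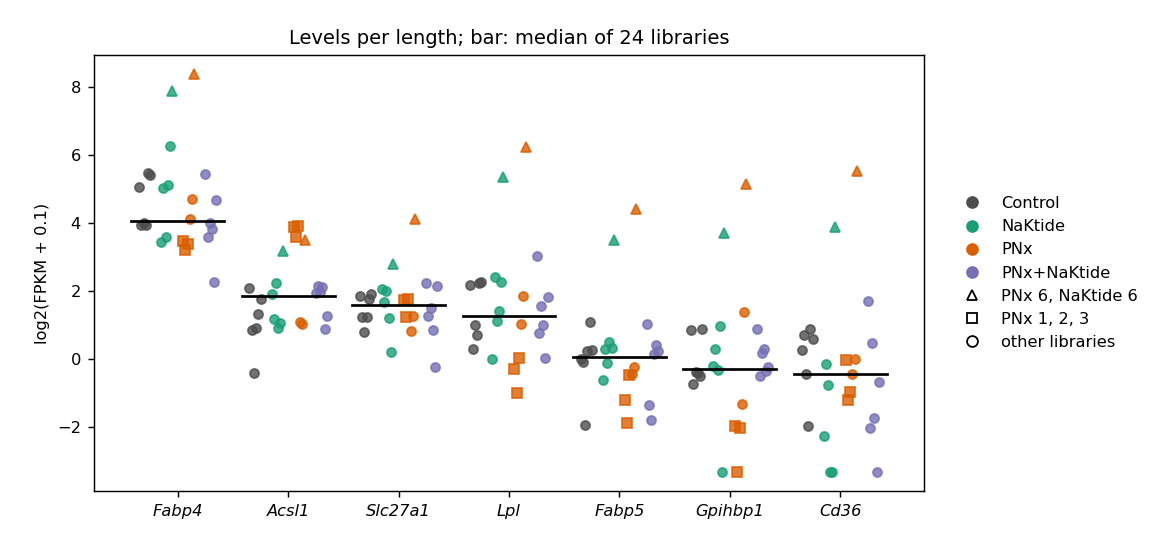
Levels of the 7 genes as log2(FPKM + 0.1), 1 point per mouse, coloured by group and ordered by the median of 24 libraries (bar). Fabp4 lies highest, and PNx replicate 6 and NaKtide replicate 6 (triangles) are the top points of each gene except Acsl1, where PNx replicates 1, 2 and 3 (squares) reach up to 14.8 FPKM.

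Fabp4, the fatty acid binding protein of adipocytes, had 9794 counts, of which 60.9% came from the pair PNx replicate 6 and NaKtide replicate 6. In Control its lowest, median and highest values were 72.9, 129 and 239 CPM. In NaKtide they were 55.9, 164 and 1009 CPM. In PNx they were 27.5, 56.9 and 1662 CPM, and PNx replicates 1, 2 and 3 (30.8, 27.5 and 32.04 CPM) lay under all Control mice. In PNx+NaKtide they were 19.96, 73.1 and 216 CPM. The highest value of PNx and of NaKtide was replicate 6, and all groups overlapped. The mean of PNx was 327 CPM ± 655 (SD, n = 6) against 145 CPM ± 78.2 (SD, n = 6) in Control, so that mean and median went opposite ways.

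Fabp5, the second cytosolic binding protein, was far lower, with 399 counts in all and 222 of them in PNx replicate 6. Its lowest, median and highest values were 0.592, 3.90 and 8.64 CPM in Control, 2.25, 4.29 and 38.2 CPM in NaKtide, 0.404, 1.94 and 83.8 CPM in PNx, and 0.714, 3.96 and 7.75 CPM in PNx+NaKtide. Without replicate 6 the PNx mice had 1.60 CPM ± 1.08 (SD, n = 5), against 4.202 CPM ± 2.60 (SD, n = 6) in Control, and the ranges overlapped.

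Lpl, the lipase itself, had 4058 counts, 73.3% of them in the same pair of libraries. Its lowest, median and highest values were 14.0, 37.3 and 58.2 CPM in Control, 10.8, 37.6 and 409 CPM in NaKtide, 2.83, 13.9 and 884 CPM in PNx, and 9.15, 26.8 and 94.1 CPM in PNx+NaKtide. PNx replicates 1, 2 and 3 had 4.68, 2.83 and 6.56 CPM, below every Control mouse, PNx replicates 4 and 5 were within the Control range and PNx replicate 6 was above it. Gpihbp1, its endothelial anchor, had 403 counts and, like Lpl, its lowest group median in PNx. Its lowest, median and highest values were 1.501, 1.81 and 5.35 CPM in Control, 0, 2.78 and 31.7 CPM in NaKtide, 0, 0.519 and 100 CPM in PNx, and 1.66, 2.45 and 4.98 CPM in PNx+NaKtide. PNx replicates 1 to 4 had 0 or 1 count (0 to 0.785 CPM), below all Control mice and under the limit of 3 counts. Control replicates 2, 3, 4 and 5 had just 3 counts each, so that this gap is one of few counts. PNx replicates 5 and 6 lay above all Control mice, at 7.13 and 100 CPM.

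Cd36, the fatty acid receptor, depended most on the pair of libraries, which held 83.0% of its 683 counts. Its lowest, median and highest values were 0.584, 5.33 and 7.40 CPM in Control, 0, 1.27 and 50.4 CPM in NaKtide, 0.808, 2.16 and 185 CPM in PNx, and 0, 1.40 and 12.7 CPM in PNx+NaKtide. NaKtide replicates 4 and 5 and PNx+NaKtide replicate 5 had 0 counts, which allows up to 3 counts in each. In CPM, 3 counts of a gene were 5.91 in NaKtide replicate 5, and 4 counts were 4.84 in NaKtide replicate 4. In PNx+NaKtide replicate 5, 2 counts were 1.66 CPM and 5 counts were 4.16 CPM. Slc27a1, the transport protein, varied less. Its lowest, median and highest values were 10.1, 19.2 and 25.4 CPM in Control, 5.91, 23.8 and 38.2 CPM in NaKtide, 8.88, 12.4 and 111 CPM in PNx, and 4.16, 15.8 and 29.9 CPM in PNx+NaKtide. Apart from replicate 6, all PNx values of Slc27a1 stayed at or under 14.9 CPM, inside the lower part of the Control range or under it. This depended on the scale. In deposited FPKM, PNx replicates 1 and 3 had 3.185 and 3.27 FPKM, in the upper part of the Control range (1.64 to 3.65 FPKM, median 2.77 FPKM).

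Acsl1, the acyl-CoA synthetase, had another pattern. In Control its 6 mice had 50.6, 21.0, 7.10, 19.8, 29.6 and 41.5 CPM. In PNx they had 95.1, 84.0, 107, 21.99, 22.6 and 130 CPM, so that replicates 1, 2, 3 and 6 exceeded every Control mouse and replicates 4 and 5 did not. In NaKtide they had 44.6, 25.9, 58.0, 19.4, 19.7 and 89.2 CPM, and in PNx+NaKtide 43.7, 49.0, 43.6, 47.6, 17.5 and 25.8 CPM. Acsl1 was thus high in the 3 PNx libraries in which Fabp4, Lpl and Gpihbp1 were low. The pair PNx replicate 6 and NaKtide replicate 6 held only 19.5% of its 2469 counts.

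**Figure D2:**
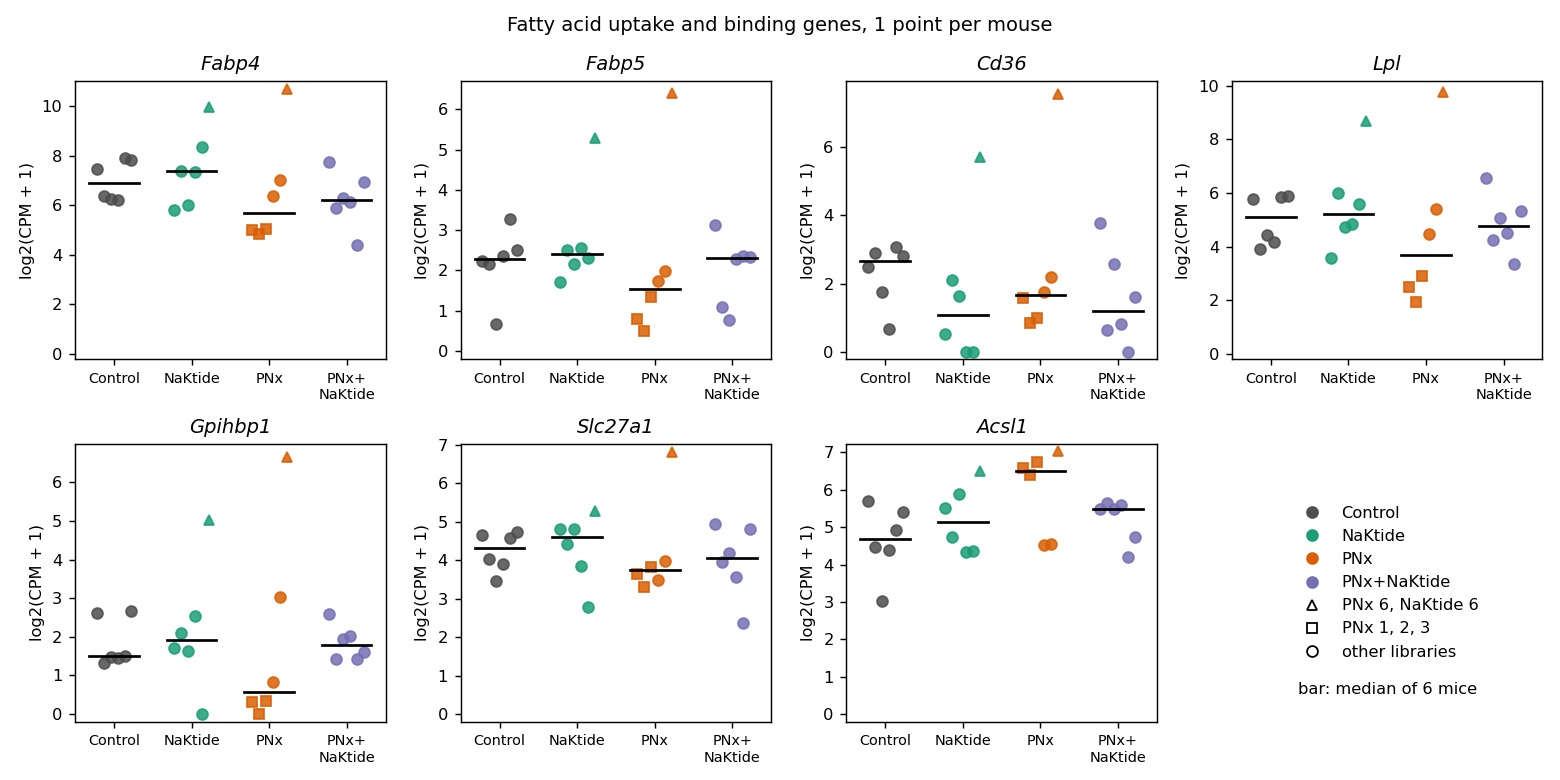
The 7 genes by group as log2(CPM + 1), 1 point per mouse, with the median of 6 mice as a bar. PNx replicate 6 and NaKtide replicate 6 (triangles) are the top points of their groups in all 7 genes, and for Acsl1 the PNx replicates 1, 2 and 3 (squares) lie near them, at 84.0 to 107 CPM against 130 CPM in PNx replicate 6.

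Whether nephrectomy changed these genes was asked by comparing PNx with Control. None of the 7 genes was called by edgeR (quasi-likelihood test, Benjamini-Hochberg adjusted p under 0.1, all genes in 1 fit of 24 libraries), where 0.0766% of all genes tested were called. At an unadjusted p under 0.05, 3 of 7 were higher (Cd36, Gpihbp1 and Acsl1) and 0 lower, beside 18.5% and 6.88% of all genes. The fitted log2 fold changes were all above 0, with a median of 1.86 against 0.36 over all genes. They were 1.17 ± 0.89 (SE) for Fabp4, 1.86 ± 1.00 for Fabp5, 2.12 ± 1.11 for Lpl, 2.63 ± 1.17 for Gpihbp1, 2.81 ± 1.32 for Cd36, 0.60 ± 0.57 for Slc27a1 and 1.44 ± 0.49 for Acsl1. The lowest adjusted p of edgeR was 0.136, for Acsl1, followed by 0.172 for Gpihbp1 and 0.187 for Cd36, and Fabp5, Lpl, Fabp4 and Slc27a1 had 0.231, 0.222, 0.383 and 0.484.

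For the 6 genes other than Acsl1 this direction rested on PNx replicate 6. Without that library the log2 fold changes of PNx against Control were -1.27 ± 0.67 (SE) for Fabp4, -1.46 ± 0.76 for Fabp5, -1.30 ± 0.83 for Lpl, -0.95 ± 0.91 for Gpihbp1, -1.28 ± 1.07 for Cd36 and -0.67 ± 0.44 for Slc27a1, and again none was called (edgeR adjusted p of 0.184 to 0.462), beside 14.8% of all genes. The same 6 genes were higher in the fit without PNx replicates 1, 2 and 3, at 1.17 for Slc27a1 to 3.64 for Cd36. The median over all genes was -0.05 there. None of the 7 was called in that fit, and 6 of 7 were higher at an unadjusted p under 0.05 by edgeR. The shares of all genes are not given for that fit, so these counts cannot be weighed. Acsl1 kept its direction in both fits, at 1.23 ± 0.50 (adjusted p = 0.112 by edgeR) without PNx replicate 6 and 0.95 ± 0.54 (adjusted p = 0.504 by edgeR) without PNx replicates 1, 2 and 3. Acsl1 was called higher without PNx replicate 4 (adjusted p = 0.0391 by edgeR, log2 fold change 1.71), without PNx replicate 5 (0.0627, 1.63) and without both replicates 6 (0.0889, 1.23), and Gpihbp1 was called higher without PNx replicate 4 (0.0839, 2.78). Of all genes tested, 33.2% were called with PNx replicate 4 left out, 23.2% with PNx replicate 5 left out and 21.8% with both replicates 6 left out. Acsl1 was also called with scaling by library size alone (beside 15.7% of all genes), with the filterByExpr filter (17.9%) and, together with Gpihbp1, with DESeq2 size factors (33.3%). DESeq2, the tool of the study, called Acsl1 (2.02 ± 0.52, adjusted p = 0.00815 by DESeq2) beside 34.9% of the genes with an adjusted p. It gave no p for Fabp5, Cd36, Lpl and Gpihbp1, as it does for genes with an extreme count in a library. With limma voom and sample weights, which called 63.5% of all genes, Fabp4, Fabp5, Lpl and Gpihbp1 were called lower in PNx and Acsl1 higher.

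**Figure D3:**
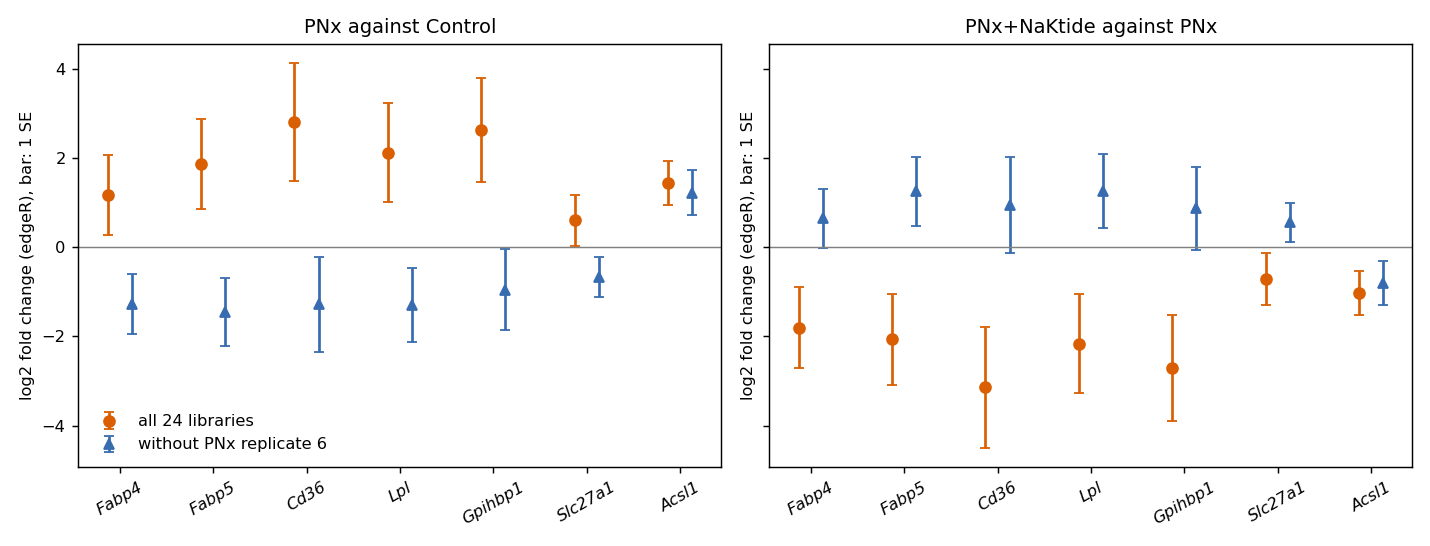
Log2 fold change of each gene by edgeR with its SE, in all 24 libraries (circles) and without PNx replicate 6 (triangles), for PNx against Control and for PNx+NaKtide against PNx. For 6 genes the circles and triangles lie on opposite sides of 0, and for Acsl1 they lie on the same side, at 1.44 and 1.23 and at -1.02 and -0.81.

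Whether NaKtide altered these genes after nephrectomy was asked by comparing PNx+NaKtide with PNx, which shares the PNx libraries with the comparison above. None of the 7 genes was called by edgeR, and 0 of all genes were (0.0%). At an unadjusted p under 0.05, 3 of 7 were lower (Cd36, Gpihbp1 and Acsl1), beside 8.60% of all genes. The log2 fold changes by edgeR were -1.80 ± 0.91 (SE) for Fabp4, -2.07 ± 1.02 for Fabp5, -2.16 ± 1.11 for Lpl, -2.71 ± 1.18 for Gpihbp1, -3.14 ± 1.35 for Cd36, -0.71 ± 0.57 for Slc27a1 and -1.02 ± 0.49 for Acsl1, with adjusted p-values of 0.370 to 0.521. Their median was -2.07 against -0.37 over all genes. Without PNx replicate 6 the values of the 6 genes other than Acsl1 turned to between 0.56 (Slc27a1) and 1.26 (Fabp5), with adjusted p-values of 0.355 to 0.598 by edgeR, and Acsl1 stayed at -0.81 ± 0.50. The medians of the mice in CPM went the same way as this second fit for 5 of these genes. In deposited FPKM the median of Slc27a1 went the other way, with 2.73 FPKM in PNx and 2.51 FPKM in PNx+NaKtide. Fabp4 had a median of 56.9 CPM in PNx and 73.1 CPM in PNx+NaKtide, Fabp5 1.94 and 3.96 CPM, Lpl 13.9 and 26.8 CPM, Gpihbp1 0.519 and 2.45 CPM, and Slc27a1 12.4 and 15.8 CPM, while Cd36 had 2.16 and 1.40 CPM. Acsl1 had a median of 89.6 CPM in PNx and 43.7 CPM in PNx+NaKtide, and 1 PNx+NaKtide mouse lay below all PNx mice. DESeq2 called Acsl1 lower (-1.48 ± 0.52, adjusted p = 0.0821 by DESeq2), beside 9.63% of genes with an adjusted p, and limma voom called Lpl and Gpihbp1 higher and Acsl1 lower, beside 42.4% of all genes.

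NaKtide against Control, in sham mice, gave no call among the 7 genes by edgeR and none over all genes (0.0%), and 0 of 7 passed an unadjusted p under 0.05, beside 3.95% of all genes. The log2 fold changes lay between 0.26 (Slc27a1) and 1.41 (Lpl), and without both replicates 6 between -1.71 and 0.26, with 3 genes above 0 and 4 below. PNx+NaKtide against NaKtide also gave 0 calls, 0 of 7 at an unadjusted p under 0.05 (beside 4.09% of all genes) and log2 fold changes from -1.66 (Fabp4) to -0.19 (Acsl1). Without both replicates 6 they ran from -0.72 to 1.38. Limma voom called none of the 7 in either comparison, and DESeq2 none of the 3 for which it gave an adjusted p. The shares of all genes called by these tools in either comparison are not given, so these counts cannot be weighed. The interaction of nephrectomy and NaKtide, which asks whether NaKtide acted differently in PNx than in sham mice, was not called for any of the 7 genes nor for any gene (0.0%). Its log2 values were all below 0, from -4.23 to -0.97 with a median of -3.28. At an unadjusted p under 0.05, 6 of 7 were lower, Slc27a1 being the exception, beside 5.79% of all genes. With limma voom the interaction was called for Gpihbp1 (2.30) and Acsl1 (-1.70), beside 25.2% of all genes. Without PNx replicate 6 none of these 6 had an unadjusted p under 0.05, and the log2 values ran from -1.42 (Acsl1) to 0.30 (Slc27a1). Without both replicates 6 the sign turned for the 6 genes other than Acsl1, from 0.52 (Slc27a1) to 2.67 (Cd36), with Acsl1 at -1.07 and none called.

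The genes other than Acsl1 moved with the adipocyte markers over the 24 libraries. For the summed adipocyte list, Pearson's r on the log2 scale was 0.935 for Fabp4, 0.911 for Lpl, 0.868 for Fabp5, 0.859 for Cd36, 0.820 for Gpihbp1 and 0.777 for Slc27a1, and Spearman's rho was 0.893, 0.889, 0.744, 0.592, 0.661 and 0.650 in the same order (n = 24, permutation test, 100000 draws, adjusted over 10 relations, adjusted p at most 0.000129 for r and at most 0.00414 for rho). Leaving out the 2 libraries farthest out, PNx replicate 6 and NaKtide replicate 6, left r at 0.873 for Fabp4 and 0.783 for Lpl and lowered it to 0.568, 0.572, 0.422 and 0.585 for Fabp5, Cd36, Gpihbp1 and Slc27a1. For Acsl1 r was 0.414 (adjusted p = 0.0452 by the permutation test) and rho 0.130 (adjusted p = 0.543), and r without the pair was 0.0263. Points share their library, its depth and the scaling. Gpihbp1 also moved with the sum of the 10 endothelial markers, of which Egfl7 held 61.2%. This relation had r = 0.830 and rho = 0.527 (adjusted p = 0.000175 and 0.0099 by the permutation test). Without the same pair r was 0.352, so that the relation rests on those libraries.

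Each gene was also set against the adipocyte list, which holds none of the 7, so that the values are ratios to the sum of other genes, in percent. For Fabp4 this ratio ran from 11.9% to 53.4% over the 24 libraries. It was 24.04% to 44.4% in Control, 27.5% in PNx replicate 6 and 21.1% in NaKtide replicate 6, the libraries in which its level was highest. PNx replicates 1, 2 and 3 had 12.3%, 11.9% and 13.9%, the lowest ratios of all 24 libraries, and PNx replicates 4 and 5 had 41.8% and 36.9%. For Lpl the ratio was 4.28% to 10.7% in Control and 1.87%, 1.23% and 2.84% in PNx replicates 1, 2 and 3. In PNx replicate 6 it was 14.6%, the highest of all 24 libraries. For Acsl1 it came to 3.07% to 7.75% in Control and to 38.0%, 36.4% and 46.3% in PNx replicates 1, 2 and 3, against 2.15% in PNx replicate 6. With the log2 sum of the list as a covariate, the log2 fold changes of the 6 other genes in PNx against Control lay between -0.38 (Fabp4) and 0.16 (Gpihbp1), none called. Acsl1 was called at 1.47 (adjusted p = 0.0961 by edgeR), beside 3.69% of all genes.

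**Figure D4:**
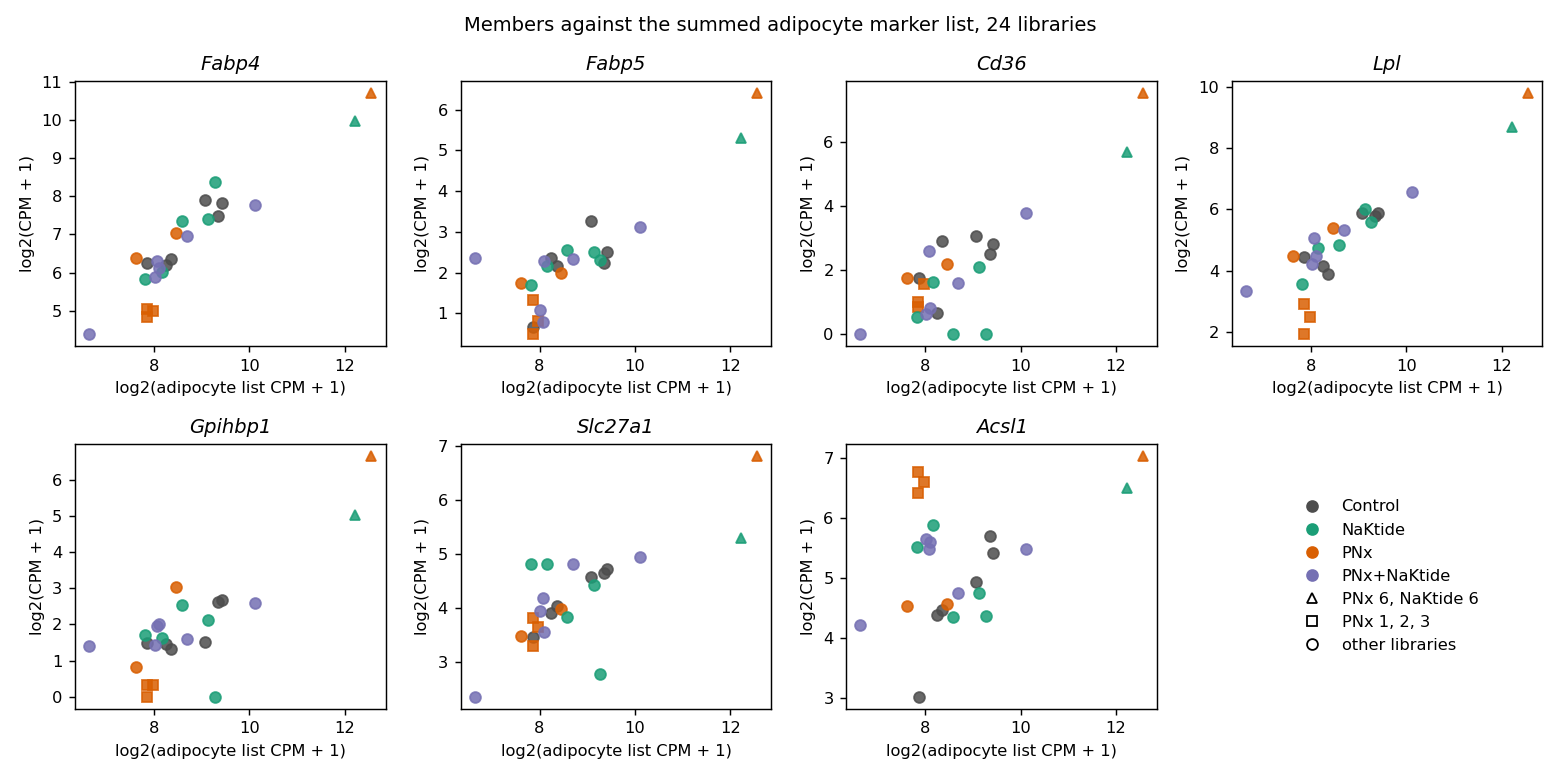
Each gene, as log2(CPM + 1), against the log2 of the summed adipocyte markers (CPM + 1) in the 24 libraries, coloured by group. Fabp4 and Lpl are higher where the list is higher, with r of 0.935 and 0.911, and for Acsl1 PNx replicates 1, 2 and 3 (squares) lie above libraries of the same adipocyte level.

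Acsl1 shares exon bases with Gm45244 on the other strand, and the strand of the counts is in doubt, as for all 7 genes. The libraries were stranded, but without the strand setting, counts in the shared bases cannot be assigned to Acsl1 or to Gm45244. Gm45244 had 9588 counts, more than the 2469 of Acsl1, and 3150, 1911 and 1918 of them were in PNx replicates 1, 2 and 3. These libraries had 776, 772 and 484 CPM, PNx replicates 4, 5 and 6 had 16.5, 11.3 and 10.2 CPM, and Control mice had 23.3 to 125 CPM. PNx+NaKtide replicates 2, 3 and 4 had 308, 309 and 217 CPM of Gm45244 and, with replicate 1, the higher Acsl1 values of their group. PNx replicate 6, at 130 CPM the highest library for Acsl1, had less Gm45244 than all other libraries but PNx+NaKtide replicate 6 (8.83 CPM). In deposited FPKM its Acsl1 value (11.1 FPKM) lay below those of PNx replicates 1, 2 and 3 (14.6, 11.8 and 14.8 FPKM). Over the 24 libraries Acsl1 and Gm45244 had r = 0.530 and rho = 0.544 (adjusted p = 0.0093 and 0.00915 by the permutation test), and r was 0.407 without the libraries farthest out, PNx replicates 1 and 2, and 0.787 without both replicates 6. Acsl1 also moved with the testis germ cell list (r = 0.725, rho = 0.721, adjusted p = 0.000129 and 0.000275 by the permutation test), with r = 0.797 without PNx+NaKtide replicates 1 and 5. The part of either in the Acsl1 values was not tested.

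**Figure D5:**
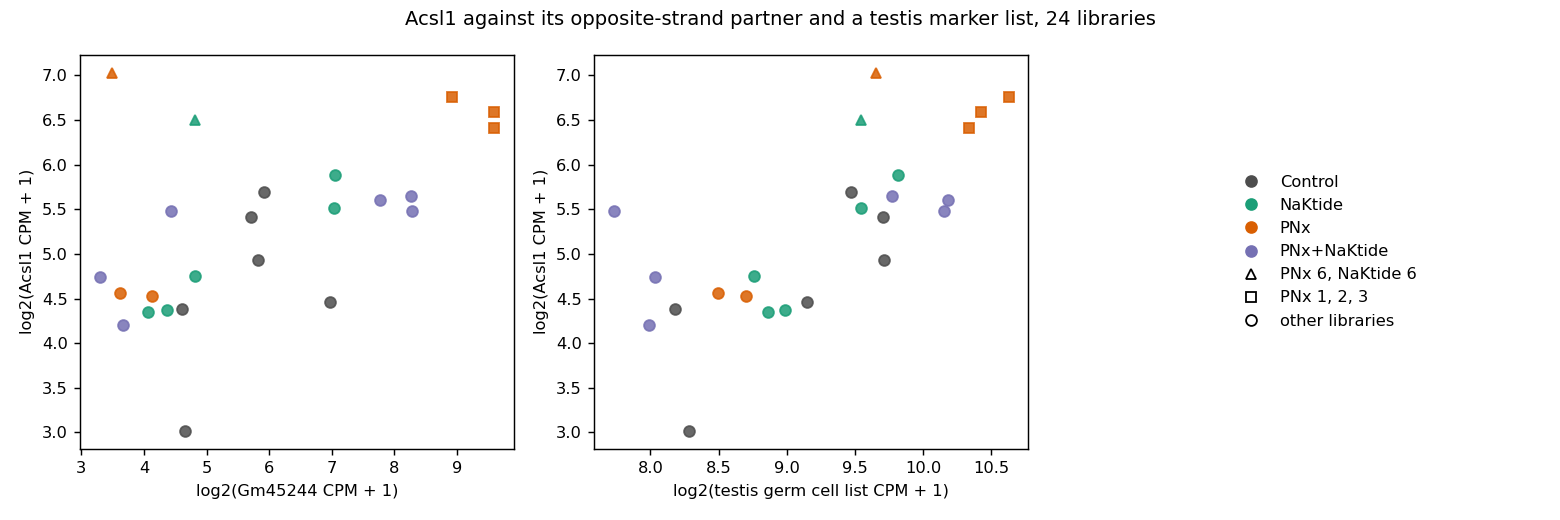
Acsl1 against Gm45244 (left) and against the summed testis germ cell markers (right), both axes as log2(CPM + 1), 24 libraries coloured by group. PNx replicates 1, 2 and 3 (squares) are high on every axis. PNx replicate 6 (triangle) is high in Acsl1 at low Gm45244, with 10.2 CPM. NaKtide replicate 6 (triangle) is high in Acsl1 at 27.2 CPM of Gm45244, within the Control range (23.3 to 125 CPM).

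Among themselves, the 6 genes other than Acsl1 were alike. Their 15 pairs had r of 0.695 to 0.956 (median 0.813) over the 24 libraries and 0.260 to 0.904 (median 0.501) without both replicates 6. The 6 pairs with Acsl1 had r of 0.147 to 0.492, and -0.349 to 0.264 without both replicates 6. These are descriptions over libraries that share depth and scaling. Among 3130 genes with at least 1000 counts, the genes most like Fabp4 were Pck1, Car3 and Cavin1 (r = 0.958, 0.953 and 0.948), and those most like Lpl were Car3, Scd1 and Plin1 (r = 0.966, 0.960 and 0.957). Pck1, Car3 and Plin1 are in the adipocyte list, and so is Aoc3, which with Cav1 and Sptbn1 was most like Cd36 (r = 0.937 for Cav1, 0.918 for Aoc3 and 0.889 for Sptbn1). Fabp5 was most like Vim, Mcam and Gsn (r = 0.894 to 0.907), Gpihbp1 like Col4a2, C3 and Stx16 (0.895 to 0.925) and Slc27a1 like Actn4, Psap and Actb (0.879 to 0.921). Acsl1 was most like Sh3glb1, Ybx1 and Lgals1 (r = 0.905 to 0.914), none of them an adipocyte marker of the list.

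The wider pathway was followed with 49 listed genes in 8 roles, of which 40 were tested. None was called by edgeR in any of the 5 comparisons. In PNx against Control, 4 of 40 were higher and 3 lower at an unadjusted p under 0.05 (17.5% of them, beside 25.4% of all genes), and DESeq2 called 11 higher and 2 lower of the 32 to which it gave an adjusted p (40.6%, beside 34.9% of all genes). Their median log2 fold change by edgeR was 0.51, against 0.36 over all genes. In PNx+NaKtide against PNx it was -0.51, against -0.37 over all genes, with 2 higher and 2 lower at an unadjusted p under 0.05 (10.0% of them, beside 12.7% of all genes). Fabp2, an intestinal binding protein of 52 counts in all, and Lipg, endothelial lipase, had the lowest p in PNx against Control. Lipg had a median of 8.10 CPM in Control, 2.52 CPM in PNx and 9.16 CPM in PNx+NaKtide, with log2 fold changes of -1.80 ± 0.62 and 1.78 ± 0.62 (SE; adjusted p = 0.136 and 0.357 by edgeR). Pparg, the transcription factor of adipocytes that acts on several of the 7 genes, had 233 counts, with medians of 1.91 CPM in Control, 1.75 CPM in PNx and 0.279 CPM in PNx+NaKtide and a highest value of 51.3 CPM in PNx replicate 6. Its log2 fold change in PNx+NaKtide against PNx was -3.49 ± 1.26 (adjusted p = 0.357 by edgeR), and -0.99 ± 1.09 (adjusted p = 0.586 by edgeR) without that library. In PNx against Control it was 2.30 ± 1.14 with PNx replicate 6 and -0.19 ± 0.99 without it. Without PNx replicate 6, Lipg (-1.74 ± 0.65, adjusted p = 0.096 by edgeR) and Fabp2 (3.34 ± 1.02, adjusted p = 0.0769 by edgeR) were called in PNx against Control, beside 14.8% of all genes.

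In each role, the listed gene of highest mean FPKM was named. Among other vessel wall lipases it was Lipc, hepatic lipase, at a median of 56.4 FPKM, more than Fabp4, and Lipc was at 0 in the lowest library. Among other binding proteins it was Fabp9, known from the testis, at a median of 7.28 FPKM and a highest value of 101 FPKM in PNx replicate 3. Among carriers it was Dbi, the acyl-CoA binding protein, with a median of 20.1 FPKM and a highest value of 225 FPKM in PNx replicate 6, and among transcription factors Cebpa, with a median of 4.68 FPKM and a highest value of 111 FPKM in NaKtide replicate 6. The others were Acsm3 among synthetases (median 16.6 FPKM, with 1962 exon bases shared with the opposite strand), Lrpap1 among receptors (9.13 FPKM), Angptl8 among Lpl partners (3.31 FPKM) and Slc27a4 among transport proteins (2.34 FPKM).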

How the data were processed

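Adipose RNA of 24 mice was sequenced from stranded mRNA libraries. The authors trimmed paired reads with Trimmomatic 0.38, aligned them to GRCm38 with HISAT2 2.1.0 and counted reads per gene with GenomicAlignments. The strand setting and annotation release are not given in the sources used here. They deposited raw counts, normalized values and FPKM. The deposited counts were used for the tests, and the FPKM deposited by the authors for levels and alternatives. Groups and replicate numbers came from the labels, which give no batch. The 24 columns of normalized values were not used, and every column used has its sample.

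Gene names, coordinates and strands came from GENCODE M21, which held 54165 of 54232 identifiers. Genes with more than 10 counts over all libraries were fitted with edgeR 4.0.16 in R 4.3.3 (TMM, robust quasi-likelihood F-test, 4 group means), with a Benjamini-Hochberg adjusted p under 0.1 over all genes tested. Each SE was taken as log2 fold change (its size) over the root of F. The biological coefficient of variation was 71.4%. The study used DESeq2 1.20.0. Alternatives were DESeq2 1.42.0, limma 3.58.1 (voom with sample weights, and FPKM with pseudocounts of 1 and 0.1), other scalings and filters, an adjusted p under 0.05, the compared groups alone, the replicate block, the adipocyte list as a covariate, and each of the 24 libraries left out in turn, both replicates 6 together and PNx replicates 1, 2 and 3 together. Correlations used log2 CPM with a prior count of 2. Tests were checked on simulated counts. Chi-square over degrees of freedom was at least 1.57 between libraries of a group, so none was a duplicate. The labels do not say more of the mice than 1 library each, and p-values measure the spread between these libraries.

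The 7 genes, the pathway and marker lists and the tests were chosen with earlier results of these data known. Named genes are the 7, their opposite-strand partner, per role the pathway gene of highest mean FPKM, the 2 pathway genes of lowest p in PNx against Control and in PNx+NaKtide against PNx, and the 3 genes of highest r with each of the 7 among genes of at least 1000 counts, unnamed models passed over. Marker lists were summed in each library, with no test between groups.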

Additional observations from a re-analysis of the deposited data

Results flagged for a closer look

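In groups of 6 mice, a library was looked at again when its gap to the nearest other value was too large a part of its group's range (Dixon's 95% critical value). For normally distributed values chance does this in about 1 of 20 groups. CPM values need not be so distributed, and their rate was not tested. The criterion was met in 12 of the 28 groups (7 genes in 4 groups). PNx replicate 6 accounted for 6 of them, with 1662 CPM of Fabp4, 83.8 CPM of Fabp5, 185 CPM of Cd36, 884 CPM of Lpl, 100.4 CPM of Gpihbp1 and 111 CPM of Slc27a1. NaKtide replicate 6 accounted for 5, with 1009 CPM of Fabp4, 38.2 CPM of Fabp5, 50.4 CPM of Cd36, 409 CPM of Lpl and 31.7 CPM of Gpihbp1. The remaining library was PNx+NaKtide replicate 1, with 94.1 CPM of Lpl, where the adipocyte list also had the highest sum of its group (1108 CPM). Acsl1 met the criterion in no group. The genes share libraries, so the 12 are not independent. The part of the adipocyte, endothelial, muscle and erythrocyte markers that moved with these libraries was not tested.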

How the results depend on the processing

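The count of the 7 genes called stayed at 0 in NaKtide against Control and in PNx+NaKtide against NaKtide under every alternative run, for which shares of all genes are not given. In PNx against Control it became 1 with scaling by library size alone, with the filterByExpr filter (which left 4 of the 7), with the adipocyte list as a covariate, with DESeq2 and without both replicates 6 (Acsl1 in each), 2 with DESeq2 size factors (Acsl1 and Gpihbp1) and 5 with limma voom. In PNx+NaKtide against PNx it became 1 with DESeq2 (Acsl1) and 3 with limma voom, and in the interaction 2 with limma voom. Leaving out each library in turn gave 0 to 2 in PNx against Control, with 2 without PNx replicate 4 and 1 without PNx replicate 5, and 0 in the other comparisons. In the interaction the median log2 value of the 7 genes was -3.28, and it became 1.03 without both replicates 6, 0.94 with limma voom and 0.15 with the adipocyte list as a covariate. The cause of these differences was not tested.

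Scaling was varied only in the edgeR fits of all 24 libraries. There it turned the direction of none of the 7 genes, in PNx against Control or in PNx+NaKtide against PNx. The median over all genes of the log2 fold change in PNx against Control moved from 0.36 to 0.76 with DESeq2 size factors and 0.70 with library size alone. Fits with libraries left out used TMM only, so whether scaling would alter their directions was not tested. Direction did turn with other choices, and the cause was not tested. In PNx against Control the log2 fold change became -0.38 for Fabp4, -0.27 for Fabp5, -0.14 for Cd36, -0.22 for Lpl and -0.038 for Slc27a1 with the adipocyte list as a covariate. With limma voom it became -1.64 for Fabp4, -1.43 for Fabp5, -1.19 for Cd36, -2.13 for Lpl, -2.38 for Gpihbp1 and -0.48 for Slc27a1. With limma on log2(FPKM + 1), with or without a filter, it became -0.075 for Fabp4, and on log2(FPKM + 0.1) -0.10 for Fabp4, -0.13 for Lpl and -0.31 for Gpihbp1. Without both replicates 6 it became -1.28 for Fabp4, -1.47 for Fabp5, -1.28 for Cd36, -1.30 for Lpl, -0.96 for Gpihbp1 and -0.67 for Slc27a1. In PNx+NaKtide against PNx it became 0.035 for Fabp4, 0.45 for Fabp5, 0.54 for Lpl, 0.25 for Gpihbp1 and 0.077 for Slc27a1 with the covariate, 0.92 for Fabp4, 0.98 for Fabp5, 0.29 for Cd36, 1.98 for Lpl, 2.48 for Gpihbp1 and 0.25 for Slc27a1 with limma voom, 0.056 for Lpl and 0.40 for Gpihbp1 on log2(FPKM + 0.1) and 0.65 for Fabp4, 1.26 for Fabp5, 0.95 for Cd36, 1.26 for Lpl, 0.89 for Gpihbp1 and 0.56 for Slc27a1 without both replicates 6. Over the 24 fits with 1 library left out, values ran from -1.27 to 1.41 for Fabp4, -1.46 to 2.19 for Fabp5, -1.28 to 3.06 for Cd36, -1.30 to 2.38 for Lpl, -0.95 to 2.89 for Gpihbp1, -0.67 to 0.79 for Slc27a1 and 1.23 to 1.71 for Acsl1 in PNx against Control and from -2.23 to 0.65 for Fabp4, -2.46 to 1.26 for Fabp5, -4.22 to 0.95 for Cd36, -2.74 to 1.25 for Lpl, -2.98 to 0.87 for Gpihbp1, -0.94 to 0.56 for Slc27a1 and -1.31 to -0.81 for Acsl1 in PNx+NaKtide against PNx, and each change of sign came without PNx replicate 6.

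With the replicate number as a block, 0 of the 7 genes were called in any comparison. In PNx against Control the blocked log2 fold change turned to -0.31 for Fabp4, -0.0092 for Fabp5 and -0.077 for Lpl, and in PNx+NaKtide against PNx to 0.24 for Lpl. The numbers do not pair the mice, since libraries of the same number deviated from their group means with r of -0.73 to 0.71 in the former and -0.79 to 0.88 in the latter, and only 1 and 2 libraries correlated best with their own number. The rank of each gene by median level was the same without both replicates 6 and as CPM per kb. Depth limits Fabp5, Cd36 and Gpihbp1 most, with 399, 683 and 403 counts over 24 libraries.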
